A study of Mus musculus with 24 samples.

Results

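Wild-type cerebellum was compared with wild-type skeletal muscle to describe which genes gave each tissue its identity and which genes both tissues carried at the same level. The tissues came from 1-month-old wild-type C57BL/6 mice, with 3 arrays of cerebellum and 3 arrays of skeletal muscle. The assay was an Affymetrix mouse exon array hybridised with total RNA of 1 sample, and a transcript cluster is the set of probes on that array assigned to 1 gene. All clusters that the platform annotation pairs with a single gene symbol were taken, with no selection on their values. They numbered 14996 of the 23332 clusters at the gene level and stood for 14860 distinct symbols. Of the rest, 1019 clusters carried several symbols and 7317 were unnamed. The series also holds 3 arrays of cerebellum and 3 of skeletal muscle from *Usp15*-deficient C57BL/6 mice of the same age, which share no sample with the wild-type arrays and were used only to see whether a tissue difference was met again. The labels name neither the muscle that was dissected nor the sex of the mice, and whether each array stands for its own animal is not stated, so p-values here reflect sample-to-sample spread that may be technical.

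The cerebellum is built around one of the most numerous neurons of the brain, the small excitatory granule neuron, whose axons contact the Purkinje cells. Purkinje cells are large inhibitory neurons and the only output of the cerebellar cortex. Local inhibitory interneurons, astrocytes, the Bergmann glia that ensheath Purkinje dendrites, and myelinating oligodendrocytes make up most of the rest. Skeletal muscle is built of multinucleate fibres packed with sarcomeres, in which myosin thick filaments pull on actin thin filaments once calcium is released from the sarcoplasmic reticulum. Fast and slow fibres use different versions of almost every sarcomere protein, and muscle is also a major site of glycogen storage and of fatty acid use.

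Values are log2 signals as deposited, so a difference of 1 is a 2-fold difference. Differences are cerebellum minus skeletal muscle, and a cluster was called at an adjusted p under 0.05 (limma, two-sided, Benjamini-Hochberg over all 23332 clusters). Of the 14996 clusters, 8380 were called higher in cerebellum (55.9%) and 2507 lower (16.7%), 72.6% in either direction. The array medians lay at 6.09, 6.11 and 6.16 in cerebellum, against 5.41, 5.45 and 5.48 in skeletal muscle. All clusters thus had a median difference of 0.62, which quantile normalization of the 6 arrays took to -0.01. The split of calls turned with it, to 3603 higher (24.0%) and 4687 lower (31.3%), and centring each array on its median gave 3314 higher (22.1%) and 5293 lower (35.3%). A cluster was therefore also counted as called under all 3 scalings when the deposited, quantile normalized and median-centred values all called it in the same direction. At 2-fold or more, 3988 were higher (26.6%) and 1286 lower (8.58%) as deposited, and 1774 higher (11.8%) and 2156 lower (14.4%) after quantile normalization. The rule of all 3 scalings held for 2829 clusters higher in cerebellum (18.9%) and 2464 lower (16.4%). In the text below, a count "under all 3 scalings" is this one, and other counts rest on the deposited values.

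The shift was widest among dim clusters. The clusters were cut into 5 equal bins by the mean of the brighter tissue. In the dimmest bin 68.8% were called higher in cerebellum and 1.87% lower, whereas in the brightest bin 42.5% were higher and 41.3% lower. After quantile normalization that brightest bin had 41.4% higher and 41.3% lower. The 825 clusters of olfactory, vomeronasal and bitter taste receptors, a group chosen after its values were seen, are known for their use in sensory epithelia. They had a median level of 3.60 in cerebellum and 2.68 in skeletal muscle, and 510 of them were called higher in cerebellum against 97 after quantile normalization. Small positive differences among dim clusters therefore depend on the scaling. A rescaled value is given below for some of them, and those without it may depend on the scaling too. No detection call was used, so a fold against a tissue in which a gene is dim depends on that low signal.

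**Figure D1:**
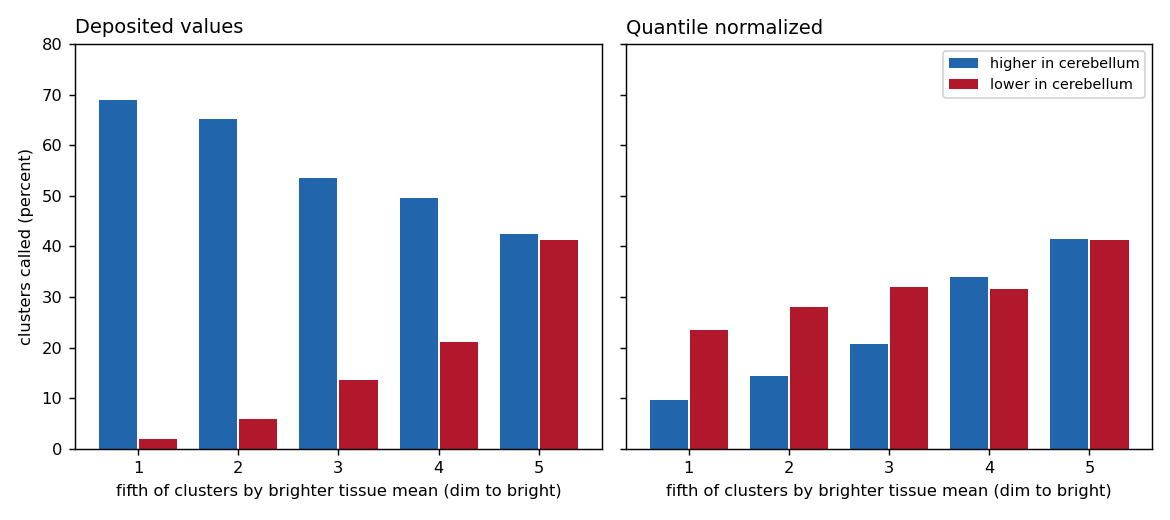
Share of clusters called higher (blue, left bar) or lower (red, right bar) in wild-type cerebellum against wild-type skeletal muscle, in percent, in 5 equal bins from dim to bright, for the deposited values (left panel) and after quantile normalization (right panel). The share called higher in the dimmest bin was 68.8% as deposited and 9.73% after quantile normalization, while in the brightest bin it was 42.5% and 41.4%.

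Within a tissue the arrays correlated at 0.968 to 0.980 in cerebellum and at 0.975 to 0.977 in skeletal muscle, and between tissues at 0.807 to 0.830. Differences were very large at both ends. At 64-fold or more, 35 clusters were called higher and 35 lower in cerebellum (18 and 39 after quantile normalization), and at 4-fold or more the counts were 1176 and 472 (780 and 642). The 10 largest differences in each direction were taken among called clusters whose tissues did not overlap, and all 20 were also called under all 3 scalings.

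On the cerebellar side the largest difference belonged to *Gabra6*, the GABA-A receptor subunit characteristic of granule neurons. It gave 10.83, 10.29 and 10.38 on the cerebellum arrays, against 2.62, 2.53 and 2.60 on the muscle arrays, a difference of 7.92 (SE 0.17, adjusted p = 4.73e-07) or 242-fold. *Cbln1*, a secreted protein that granule neurons use to hold their synapses on Purkinje cells, stood at 10.98, 10.67 and 10.73, against 3.36, 3.12 and 3.29 in muscle (difference 7.54, SE 0.14, adjusted p = 4.17e-07). *Neurod1*, the transcription factor that drives granule neuron differentiation, differed by 7.54 (SE 0.20). *Calb1*, the calcium buffer of Purkinje cells, gave 10.76, 10.52 and 10.47 in cerebellum and 3.24, 2.98 and 2.59 in muscle (difference 7.64, SE 0.19). The others serve neurons more widely. *Snap25*, a core SNARE of transmitter release, stood at 12.28, 12.13 and 12.22, against 4.80, 4.34 and 4.12 in muscle (difference 7.79, SE 0.19), and *Syt1*, the calcium sensor of release, differed by 6.89. *Gpm6a* (7.18), a membrane glycoprotein of neurons, *Vsnl1* (7.02), a neuronal calcium sensor, *Aldoc* (6.83), the brain aldolase, and *Stxbp5l* (6.76), a tomosyn-type regulator of SNAREs, completed the 10.

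On the muscle side all 10 belonged to the contractile apparatus, its calcium supply or the cytosol of fibres. *Myl1*, the essential light chain of fast myosin, gave 3.70, 3.84 and 4.24 on the cerebellum arrays, against 12.89, 12.64 and 12.70 on the muscle arrays. Its difference of -8.82 (SE 0.17, adjusted p = 4.39e-07), 451-fold, was the largest of all clusters in either direction. *Casq1*, the calcium-binding protein of the sarcoplasmic reticulum of fast fibres, stood at 4.48, 4.70 and 4.38, against 12.88, 12.81 and 12.82 in muscle (difference -8.32, SE 0.12). *Trdn*, which anchors calsequestrin at the release site, and *Atp2a1*, the calcium pump of fast fibres, differed by -8.20 and -8.04. *Mylpf* (-7.79), the regulatory light chain of fast myosin, *Actn3* (-7.59), the fast-fibre alpha-actinin, *Tnnc2* (-7.50) and *Tnnt3* (-7.34), the fast troponins C and T, and *Mybpc2* (-7.25), fast myosin-binding protein C, followed. *Car3* (-7.69), a cytosolic carbonic anhydrase, was the only one of the 10 outside the sarcomere and the calcium stores.

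**Figure D2:**
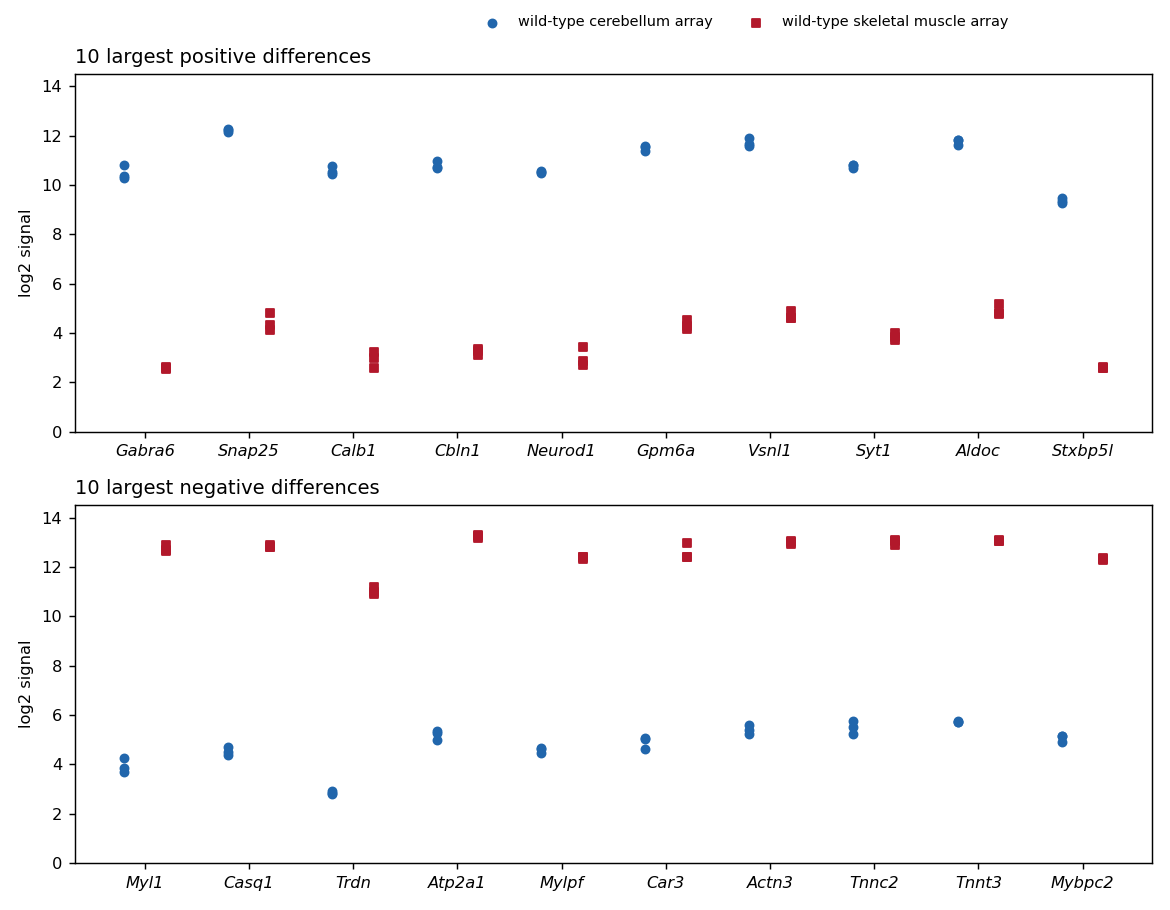
Log2 signal (vertical axis) of the 10 clusters with the largest positive differences (top) and the 10 with the largest negative differences (bottom), with each point 1 array and wild-type cerebellum (blue circles) drawn left of wild-type skeletal muscle (red squares). The 3 arrays of a tissue lie close together, and the tissues are separated by 6.76 (*Stxbp5l*) to 8.82 (*Myl1*) log2 units.

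The stretch before the transcription start is shown for 8 genes that carry these contrasts, in lower case from 250 bases upstream to the base before the start, 5′ to 3′ on the gene's own strand (RefSeq, GRCm38.p6). The first 4 are fast fibre genes among the 10 above, with the E-box letters CAGCTG, which read the same on both strands and are a form bound by the muscle factor MyoD, in capitals. The others are *Gabra6*, *Neurod1* and the evenly measured *Yy1* and *Mtch2* described further on, with each CG dinucleotide in capitals.
Mylpf, chr7:127211358-127211607, plus strand: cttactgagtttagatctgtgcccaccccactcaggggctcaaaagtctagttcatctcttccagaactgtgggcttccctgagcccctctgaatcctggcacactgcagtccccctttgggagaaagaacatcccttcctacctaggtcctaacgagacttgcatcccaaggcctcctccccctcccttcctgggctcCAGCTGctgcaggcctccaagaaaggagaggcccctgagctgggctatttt
Atp2a1, chr7:126463074-126463323, minus strand: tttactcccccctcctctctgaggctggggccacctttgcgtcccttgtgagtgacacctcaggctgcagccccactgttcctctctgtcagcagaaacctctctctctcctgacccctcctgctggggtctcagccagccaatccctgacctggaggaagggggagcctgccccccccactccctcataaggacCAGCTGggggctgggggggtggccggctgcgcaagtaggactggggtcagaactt
Casq1, chr1:172219896-172220145, minus strand: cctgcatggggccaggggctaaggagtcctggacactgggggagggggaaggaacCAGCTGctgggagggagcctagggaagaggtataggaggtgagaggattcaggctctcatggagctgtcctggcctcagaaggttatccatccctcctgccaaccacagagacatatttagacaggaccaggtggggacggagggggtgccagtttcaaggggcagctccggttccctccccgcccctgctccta
Myl1, chr1:66945057-66945306, minus strand: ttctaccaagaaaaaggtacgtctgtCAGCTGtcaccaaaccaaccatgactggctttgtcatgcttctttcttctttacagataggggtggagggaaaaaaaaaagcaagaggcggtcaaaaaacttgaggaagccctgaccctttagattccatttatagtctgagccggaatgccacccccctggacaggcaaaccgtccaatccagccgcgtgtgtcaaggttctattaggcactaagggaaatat
Gabra6, chr11:42321073-42321322, minus strand: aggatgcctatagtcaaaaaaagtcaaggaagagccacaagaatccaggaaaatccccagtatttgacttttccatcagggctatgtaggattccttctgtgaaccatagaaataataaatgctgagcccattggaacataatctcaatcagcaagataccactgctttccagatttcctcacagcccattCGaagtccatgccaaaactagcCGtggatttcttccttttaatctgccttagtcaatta
Neurod1, chr2:79456637-79456886, minus strand: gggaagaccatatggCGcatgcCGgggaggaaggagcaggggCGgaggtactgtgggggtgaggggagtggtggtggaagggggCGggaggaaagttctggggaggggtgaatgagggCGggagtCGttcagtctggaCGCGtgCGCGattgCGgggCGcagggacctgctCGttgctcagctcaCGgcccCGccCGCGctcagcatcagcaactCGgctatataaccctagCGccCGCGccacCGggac
Yy1, chr12:108793047-108793296, plus strand: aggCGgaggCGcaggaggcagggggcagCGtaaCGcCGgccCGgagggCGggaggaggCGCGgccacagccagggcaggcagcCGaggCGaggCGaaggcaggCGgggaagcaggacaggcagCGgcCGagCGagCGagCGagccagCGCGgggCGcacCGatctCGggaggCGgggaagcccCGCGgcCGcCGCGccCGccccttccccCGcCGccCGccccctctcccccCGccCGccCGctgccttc
Mtch2, chr2:90846905-90847154, plus strand: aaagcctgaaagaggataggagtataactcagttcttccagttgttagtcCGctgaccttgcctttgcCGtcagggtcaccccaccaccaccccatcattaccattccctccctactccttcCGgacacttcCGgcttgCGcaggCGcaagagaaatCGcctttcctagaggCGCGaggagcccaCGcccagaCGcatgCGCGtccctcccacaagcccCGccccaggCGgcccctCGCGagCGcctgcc

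A promoter was found for 11894 of the 14860 symbols, and for a gene with several listed starts the first was read. CAGCTG occurred in this window in 4 of the 7 fast fibre genes with a listed promoter, against 12.8% of all 27025 promoters. It lay 51 to 46 bases before the start in *Mylpf* and 55 to 50 bases before it in *Atp2a1*, but farther away in *Casq1* (195 to 190) and *Myl1* (224 to 219). *Tnnc2*, *Mybpc2* and *Tpm1* held none in the window. Among genes that differed at least 2-fold and were called under all 3 scalings, it occurred in 12.4% of the 2180 promoters of genes higher in cerebellum and in 15.8% of the 996 of genes lower. The share was 8.6% of the 359 promoters of the bright genes shared by both tissues and 12.1% over all measured genes. Counts of the CG dinucleotide had a median of 12 over all measured genes and 6 over all promoters. The genes higher in cerebellum, with a median of 13, and those lower, with 12, lay close to the measured genes. The shared bright genes had a median of 19 and the fast fibre genes one of 3. *Gabra6* had 2 and *Mylpf* 1, whereas *Neurod1* had 22 and *Yy1* 36. Such matches are letters in a window and do not show that a factor binds there.

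Gene lists of the cell types and of the machinery of each tissue were then read as a whole. In bulk tissue, fewer cells of a type and less RNA per cell cannot be told apart. The standard error of the difference ran from 0.10 (*Gria4*) to 1.31 (*Tnnc1*) over all listed genes. The background for the counts that follow is 55.9% of clusters called higher and 16.7% called lower, with 18.9% and 16.4% under all 3 scalings, and a median difference of 0.54 over the 14996 clusters (-0.08 after quantile normalization).

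All 12 measured granule neuron genes, of 15 listed, were higher in cerebellum, and all 12 were so under all 3 scalings. Their median difference was 4.56 (4.15 after quantile normalization), and it ran from 1.28 for *Barhl1*, a homeobox gene of the granule lineage, to *Gabra6*. The transcription factors *Zic1* (5.76), *Pax6* (4.62), *Zic2* (3.62) and *Neurod2* (3.57) stood beside *Cbln3* (6.52), the partner of *Cbln1*, *Slc17a7* (4.49), which loads glutamate into vesicles, and *Grin2c* (3.41), the NMDA receptor subunit of mature granule neurons. *Reln*, the secreted guidance protein that granule neurons release, gave 9.79, 9.70 and 9.78 in cerebellum, against 5.90, 5.94 and 6.24 in muscle (difference 3.73).

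All 10 measured Purkinje cell genes were higher as well, 8 of them under all 3 scalings, with a median of 3.07 (2.52). Beside *Calb1*, the widest were *Ppp1r17* (6.33), a phosphatase inhibitor of Purkinje cells, and *Car8* (4.97), a carbonic anhydrase-related protein that acts on the inositol trisphosphate receptor. *Slc1a6* (3.34), the Purkinje glutamate transporter, *Lhx1* (3.47) and *Lhx5* (2.28), the homeobox genes that specify these neurons, and *Pcp2* (2.81), a modulator of G proteins, were also higher. Weakest were the transcription factors *Foxp2* (0.97) and *Rora* (0.51, but -0.16 after median centring), the pair not called under all 3 scalings. The inhibitory interneuron genes were called in all 8 measured cases, under all 3 scalings, with a median of 2.66 (2.10). *Gad1*, which makes GABA, gave 9.88, 9.76 and 9.68 in cerebellum, against 4.59, 4.33 and 4.32 in muscle. *Gad2* (4.87), *Slc32a1* (2.61), the vesicular GABA transporter, and *Slc6a5* (2.72), the glycine transporter of Golgi interneurons, accompanied it.

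Glial genes were higher too, except those of microglia. Of 12 measured astrocyte and Bergmann glia genes, all were higher and 10 were so under all 3 scalings (median 1.97, 1.74 after quantile normalization). *Fabp7* (6.06), the brain fatty acid-binding protein, *Slc1a3* (3.78), the glutamate transporter of Bergmann glia, and *Gfap* (2.85) were the clearest. *Aqp4*, the water channel of astrocyte endfeet, differed by only 1.25 and was not called under all 3 scalings. Its muscle arrays gave 7.27, 7.88 and 8.65, and this channel is also known from the membrane of fast fibres. All 13 measured oligodendrocyte and myelin genes were higher under all 3 scalings, with a median of 3.59 (3.22). *Mbp*, the major compact myelin protein, stood at 10.48, 10.56 and 10.73, against 6.64, 6.66 and 6.85 in muscle, and *Ermn* (4.93), *Mobp* (4.19) and *Mog* (4.17), all of central myelin, differed as widely or more. The lineage factors *Olig2* (1.18) and *Sox10* (1.13) were the lowest in the list.

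The microglia list split. Of 10 measured genes 4 were higher and 3 lower, with 2 and 3 under all 3 scalings, and the median was -0.12. After quantile normalization 2 were higher and 6 lower, and the median was -0.74. *Cx3cr1*, the fractalkine receptor, gave 6.93, 6.89 and 6.67 in cerebellum and 5.26, 4.39 and 5.38 in muscle (difference 1.82), and *Trem2*, a lipid-sensing receptor, differed by 1.50. *P2ry12*, the nucleotide receptor of resting microglia, was higher by 0.75 as deposited but by -0.02 after quantile normalization. The complement genes *C1qa* (-1.21, adjusted p = 0.0194) and *C1qb* (-0.94, adjusted p = 0.0257) were lower in cerebellum, as was *Tmem119* (-0.46, adjusted p = 0.0346). Without cerebellum array 1, no microglia gene was called lower and 4 were higher.

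The machinery of synapses showed the widest shared difference of any list on the cerebellar side. All 11 measured glutamate receptor and postsynaptic scaffold genes were higher under all 3 scalings, with a median of 5.45 (5.24). *Gria2*, the AMPA receptor subunit that limits calcium entry, stood at 9.07, 9.10 and 9.02, against 2.61, 2.71 and 2.67 in muscle (difference 6.40). *Gria1* (5.72), *Cacng2* (5.66), the stargazin that carries AMPA receptors to the synapse, *Grm4* (5.41), a presynaptic metabotropic receptor of granule axons, and *Dlg4* (3.90), the scaffold PSD-95, were part of it. On the release side all 17 measured genes were higher, 16 of them under all 3 scalings (median 4.50), with *Sv2b* (6.29), *Syp* (5.37), *Cplx1* (4.95), *Syn1* (4.50) and *Vamp2* (2.74) among them. The exception was *Stx1a*, a SNARE of the plasma membrane, at 0.75 as deposited and 0.00 after quantile normalization.

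Receptors for GABA and glycine were higher in 6 of 6 measured genes, 5 under all 3 scalings (median 3.81). They included *Gabrb2* (5.54), *Glrb* (5.45) and *Gabrd* (3.63), the extrasynaptic subunit of granule neurons, and the scaffold gene *Gphn* was the weakest at 0.63, and at -0.05 after median centring. All 12 genes of the neuronal cytoskeleton and axon were higher under all 3 scalings, among them *Stmn2* (5.84), *Nefl* (4.67) and *Map2* (4.46), with a list median of 3.24. Of 11 ion channels all were higher and 10 were so under all 3 scalings (median 2.99). *Scn1a* (6.35), a sodium channel, *Cacna1a* (4.04), the P/Q-type calcium channel, and *Kcnc1* (1.80), a fast potassium channel, are all known from cerebellar neurons. Among 8 neuronal splicing regulators 7 were higher under all 3 scalings, led by *Elavl3* (5.02) and *Rbfox3* (4.93). Of 5 measured splicing regulators of muscle, *Rbm38* (-2.58) and *Mbnl1* (-1.98) were lower under all 3 scalings, and *Celf2* was higher by 0.65 as deposited and by -0.02 after median centring.

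**Figure D3:**
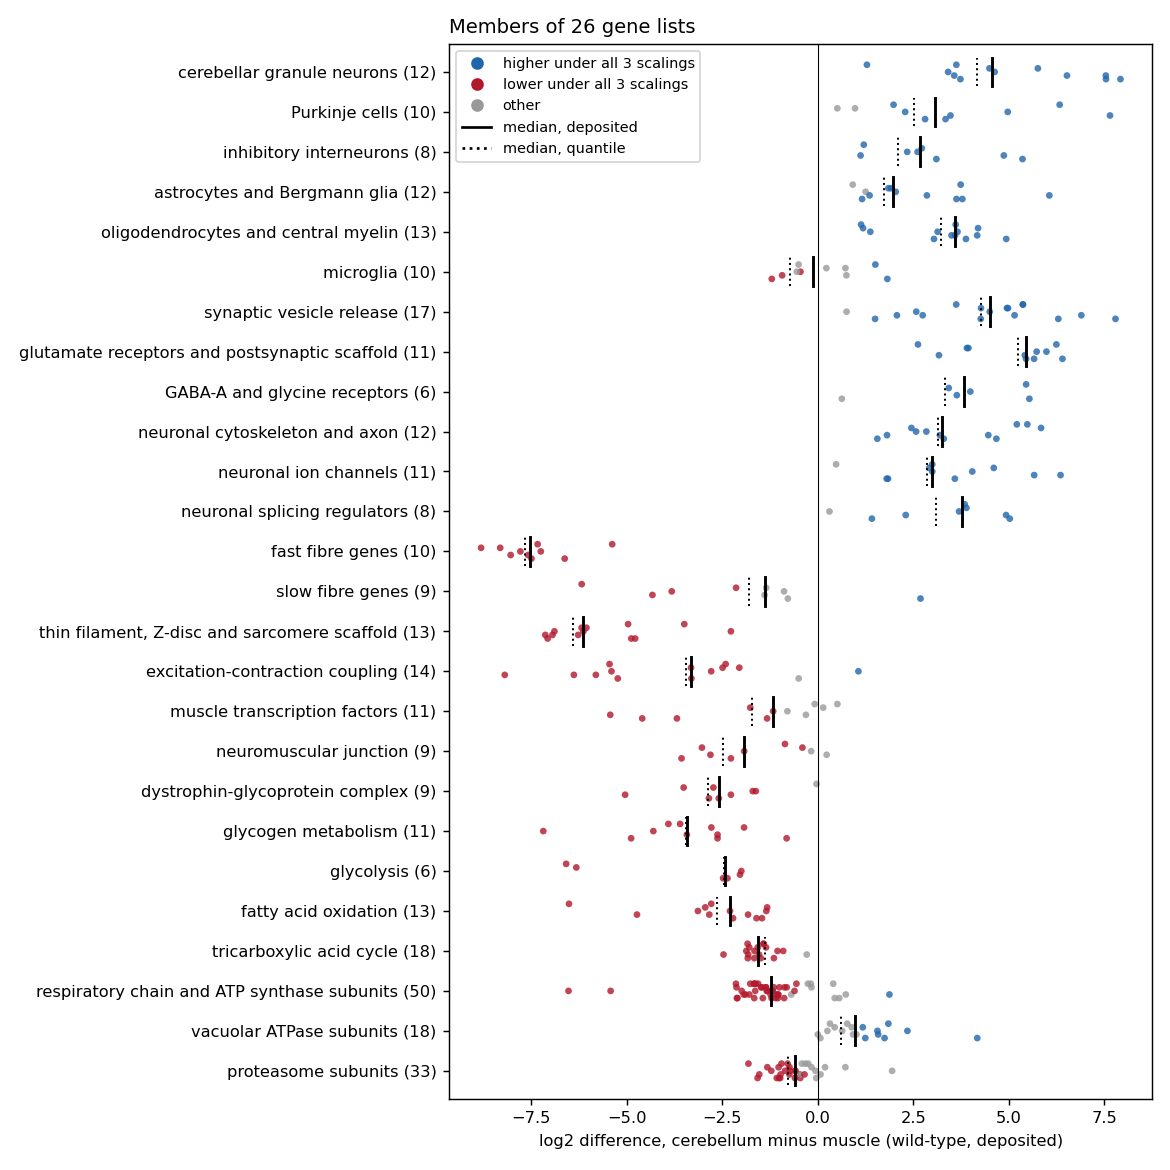
Log2 difference, wild-type cerebellum minus wild-type skeletal muscle on the deposited values, of each measured member (points) of the gene lists named at the left with their number of measured members. Blue points were called higher and red points lower under all 3 scalings, grey points were not, solid bars are list medians and dotted bars the medians after quantile normalization. Cerebellar lists lie right of 0 apart from microglia, whose deposited median was -0.12, and the fast fibre genes lie farthest left with a median of -7.54.

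The contractile lists were as uniform on the other side. All 10 measured fast fibre genes, of 13 listed, were lower in cerebellum under all 3 scalings, with a median of -7.54 (-7.67 after quantile normalization) and a range of -8.82 to -5.38, the last for *Tpm1*, a tropomyosin used in many tissues. All 13 measured genes of the thin filament, the Z-disc and the sarcomere scaffold were lower under all 3 scalings, with a median of -6.14. *Acta1*, the actin of skeletal thin filaments, stood at 6.42, 6.50 and 6.33 in cerebellum, against 13.47, 13.48 and 13.52 in muscle (difference -7.07). *Des* (-6.95), the intermediate filament that ties Z-discs together, was close to it, whereas *Cryab* (-2.28), the small heat shock protein that protects it and is also found in glia, differed least.

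Coupling of the action potential to contraction followed the same direction with exceptions. Of 14 measured genes 12 were lower in cerebellum, with a median of -3.32. *Cacna1s* (-6.39), the voltage sensor of the transverse tubule, *Ryr1* (-5.24), the release channel it opens, *Hrc* (-5.40), a calcium-binding protein of the store, and *Jph1* (-2.79), which holds both membranes together, were among them. *Asph*, whose gene makes junctin and junctate as well as a hydroxylase, was higher in cerebellum under all 3 scalings (1.06). *Sln*, a small inhibitor of the calcium pump, was not called (-0.50). The dystrophin complex was lower in 8 of 9 measured genes (median -2.59), with *Sgca* (-5.05), the sarcoglycan of striated muscle, the widest and *Dag1* (-1.71), the dystroglycan that many tissues carry, among the narrower. *Dmd* itself differed by -2.59, and *Dtna*, dystrobrevin alpha, by -0.04.

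At the neuromuscular junction 7 of 9 measured genes were lower in cerebellum (median -1.93), with the receptor subunit *Chrna1* (-3.57), the kinase *Musk* (-2.81) and the clustering protein *Rapsn* (-1.93). Transcription factors that specify or maintain muscle were less uniform. Of 11 measured, 6 were lower under all 3 scalings (median -1.17), and 9 were lower after quantile normalization. *Myf6* (-5.44), the myogenic factor of mature fibres, *Smyd1* (-4.60), a methyltransferase of sarcomere assembly, and *Mef2c* (-3.69) were widest, and *Myod1* differed by -1.33. *Myog*, which acts while fibres form, differed by -0.80 as deposited and was not called (adjusted p = 0.0672). It was called lower after quantile normalization (-1.38, adjusted p = 0.00939) and after median centring (-1.47, adjusted p = 0.00952). *Mef2a*, which neurons use too, gave 9.64, 9.36 and 9.51 in cerebellum and 9.50, 9.72 and 9.55 in muscle. *Tead4* was higher by 0.51 as deposited, by 0.02 after quantile normalization and by -0.16 after median centring.

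Slow fibre genes did not behave as one list, since muscle array 3 stood apart from the other muscle arrays in them. The median level of the 9 measured genes was 6.07, 6.12 and 6.15 on the cerebellum arrays, against 7.40, 7.81 and 9.80 on the muscle arrays. All 9 were highest on muscle array 3, whereas the 10 fast fibre genes were highest on array 1, 2 and 3 in 5, 4 and 1 cases. *Tnni1*, slow troponin I, gave 5.88, 6.30 and 6.15 in cerebellum, against 5.29, 5.60 and 9.80 in muscle, so that muscle arrays 1 and 2 lay below the cerebellum and array 3 far above it. *Tnnc1*, the troponin C of slow and cardiac muscle, had the same form, with 4.96, 4.30 and 5.09 against 4.10, 3.92 and 8.99. *Myl2*, the slow regulatory light chain, was above cerebellum on every muscle array, with 2.54, 2.71 and 2.33 against 5.39, 5.09 and 10.09.

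With all 6 arrays, 4 slow fibre genes were lower in cerebellum and 1 was higher, with a median of -1.40. Without muscle array 3, 6 were lower and 3 higher, and the median was -0.78. *Tnni1* (0.67, adjusted p = 0.0251) and *Tnnc1* (0.77, adjusted p = 0.0476) were then higher in cerebellum, where with all arrays they differed by -0.79 and -0.89 and were not called. On the *Usp15*-deficient arrays both were lower in cerebellum, by -3.02 (*Tnni1*, adjusted p = 6.99e-06) and -3.37 (*Tnnc1*, adjusted p = 2.96e-05). The genes that kept a wide difference were *Myoz2* (-6.18 with all arrays, -5.85 without array 3), a Z-disc protein, *Myl2* (-4.33 and -2.72) and *Ankrd2* (-3.83 and -3.60), a stretch-responsive ankyrin protein. *Atp2a2*, the calcium pump of slow and cardiac muscle that neurons also use, was the gene higher in cerebellum in both cases, with 10.89, 10.88 and 10.87 against 7.65, 7.81 and 9.14. Muscle array 3 was also the highest muscle array in 8 of 8 cell cycle genes, 4 of 4 macrophage genes and 8 of 9 endothelial genes, and in 0 of 5 tendon genes. The share of all clusters that were highest on muscle array 3 was not counted. Its median was the highest of the muscle arrays, 5.48 against 5.41 and 5.45. Whether a different muscle or a different share of slow fibres in that sample played a part was not tested.

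**Figure D4:**
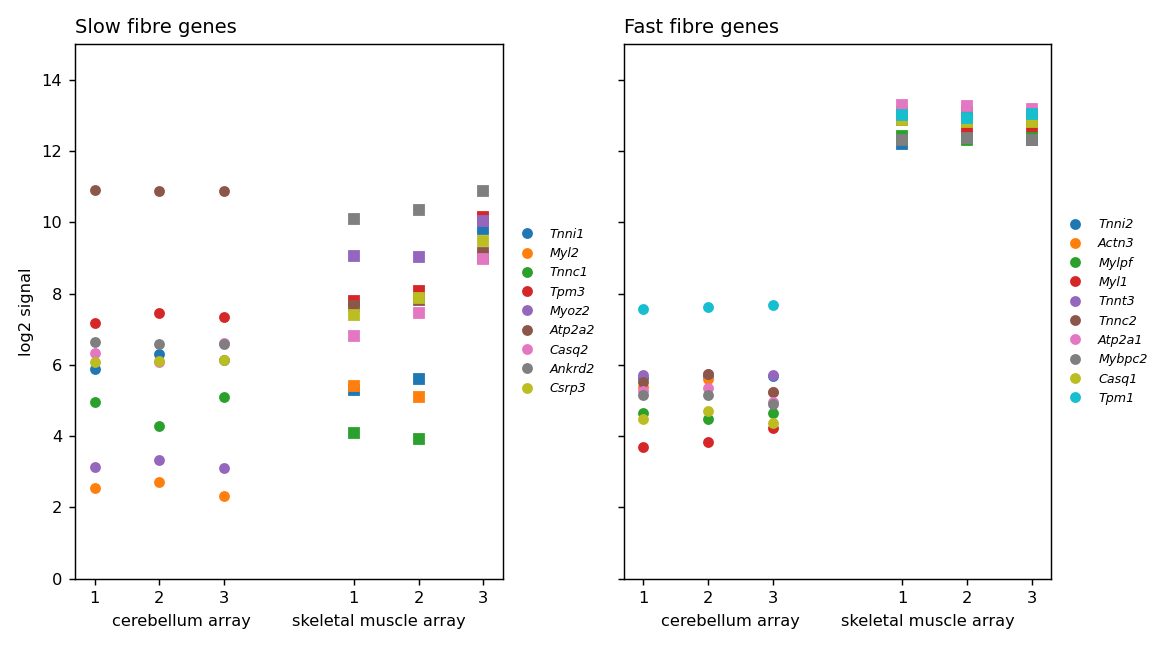
Log2 signal (vertical axis) of the slow fibre genes (left) and fast fibre genes (right) on each wild-type cerebellum array (circles) and each wild-type skeletal muscle array (squares), with 1 colour per gene in each panel. Fast fibre genes sit level across the 3 muscle arrays, whereas *Tnni1*, *Tnnc1* and *Myl2* reach 9.80, 8.99 and 10.09 on muscle array 3 and lie at 5.60 or lower on the other muscle arrays.

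The lists of energy metabolism were lower in cerebellum, with the limit that those of glycogen and glycolysis hold mostly muscle isoforms, whose brain counterparts are given with the isoform pairs. All 11 measured genes of glycogen metabolism were lower, with a median of -3.43. *Pygm*, the phosphorylase that frees glucose units in muscle, stood at 7.86, 8.31 and 8.38 in cerebellum, against 13.10, 13.12 and 13.00 in muscle. *Gys1* (-3.43), which builds the chain, and *Ppp1r3a* (-7.19), the muscle subunit that brings a phosphatase to glycogen, were part of it. The 6 measured glycolytic genes were all lower (median -2.42), from *Eno3* (-6.59) and *Pgam2* (-6.32), the muscle enolase and mutase, to *Tpi1* (-2.01). Fatty acid oxidation was lower in 13 of 13 measured genes (median -2.30), with *Cd36* (-6.51), which brings fatty acids into the cell, *Lpl* (-4.74), which frees them from lipoproteins, and the mitochondrial enzymes *Acadm* (-2.22) and *Hadha* (-1.83).

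In the mitochondrion, 17 of 18 tricarboxylic acid cycle genes were lower (median -1.56). They included *Cs* (-1.67), the first enzyme of the cycle, *Mdh2* (-1.82) and *Sdhb* (-2.47), and *Pdhb* was the one not called (-0.29). Among 50 subunits of the respiratory chain and ATP synthase, 42 were lower and 3 higher, with 41 and 1 under all 3 scalings (median -1.23). The differences were smaller than those of the sarcomere, apart from the muscle subunits *Cox8b* (-6.53) and *Cox6a2* (-5.43) of cytochrome oxidase. The subunit higher under all 3 scalings was *Cox6a1* (1.87), the form of *Cox6a2* that most other tissues use.

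That exchange recurred in enzymes and channels listed as pairs of a brain member and a muscle member. A brain member is the form set against the muscle one and need not be specific to brain. Of 30 such isoform pairs listed, 19 had both members measured. Where only the brain member was measured, *Ldhb* (1.14), *Ampd2* (1.74), *Cpt1c* (2.35) and *Scn8a* (4.60) were higher in cerebellum. *Acyp1* was not called (0.04), and *Cox7a2* of cytochrome oxidase was lower under all 3 scalings (-1.77). In 17 of the 19 the brain member was higher and the muscle member lower in cerebellum, 14 of them under all 3 scalings. The widest was enolase, with *Eno2* at 5.20 and *Eno3* at -6.59. In creatine kinase, which buffers ATP, *Ckb* gave 11.96, 12.24 and 12.69 in cerebellum, against 8.16, 7.84 and 8.55 in muscle (difference 4.11). Its counterpart *Ckm* gave 6.27, 6.41 and 5.83 in cerebellum and 13.28, 13.28 and 13.26 in muscle (difference -7.11). Their mitochondrial forms *Ckmt1* (4.40) and *Ckmt2* (-6.64) were split in the same way.

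The pairs ran through glucose entry (*Slc2a3* 3.88 and *Slc2a4* -4.45), its first phosphorylation (*Hk1* 2.06 and *Hk2* -2.48), phosphofructokinase (*Pfkp* 2.40 and *Pfkm* -2.37), aldolase (*Aldoc* 6.83 and *Aldoa* -2.04) and glycogen phosphorylase (*Pygb* 1.66 and *Pygm* -4.89). Calcium handling showed them as well, in the pumps *Atp2a2* (2.68) and *Atp2a1* (-8.04), the channels *Cacna1a* (4.04) and *Cacna1s* (-6.39), and the release channels *Ryr3* (2.55) and *Ryr1* (-5.24). So did the acetylcholine receptor subunits *Chrnb2*, higher in cerebellum, and *Chrnb1* (-3.03). The brain member was not called in the other two pairs, actinin (*Actn1*, 0.08 with an adjusted p of 0.686, and -0.35 after quantile normalization) and acetyl-CoA carboxylase (*Acaca*, 0.39 with an adjusted p of 0.158, and -0.28 after median centring). *Fbp1*, the liver form of fructose bisphosphatase used here as the counterpart of *Fbp2*, was higher by 0.82 as deposited and by -0.11 after quantile normalization.

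**Figure D5:**
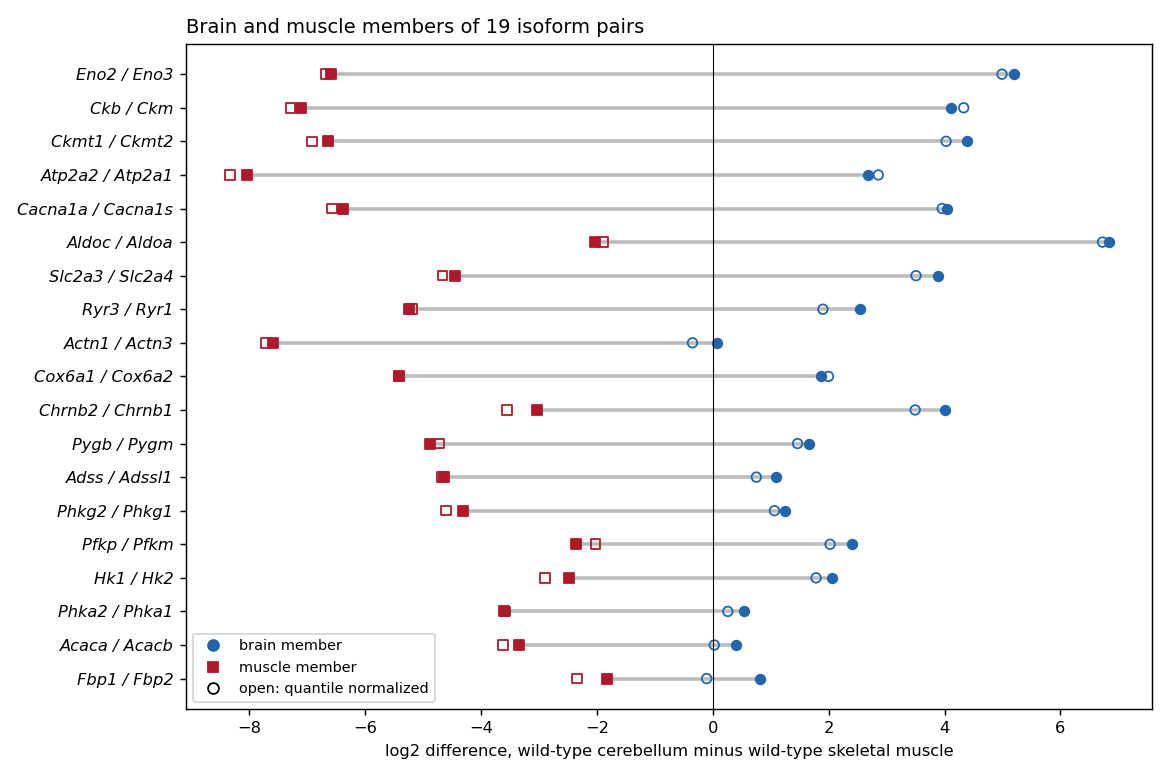
Log2 difference, wild-type cerebellum minus wild-type skeletal muscle, of the brain member (blue circles) and the muscle member (red squares) of the 19 isoform pairs with both members measured, with filled symbols the deposited values and open symbols the quantile normalized ones. Brain members reach 6.83 (*Aldoc*) and muscle members -8.04 (*Atp2a1*), while *Actn1* at 0.08 and *Fbp1* at -0.11 after quantile normalization lie near or left of 0.

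Both tissues also had genes in common. A bright gene was taken as shared when its mean lay at or above the 75th percentile of all clusters in both tissues and the 95% confidence interval of its difference lay within 0.5 on either side of 0. That held for 416 clusters (2.77% of the 14996), among 2759 that were bright in both tissues. The count was not stable, with 205 to 407 when 1 array was left out and 188 when gene values were rebuilt from the exon level. A further 1439 were bright in cerebellum only and 1524 in skeletal muscle only. After quantile normalization 621 met the rule, and 259 met it both ways. The shared genes included *Yy1*, a widely used zinc finger transcription factor, with 7.86, 7.81 and 7.85 in cerebellum and 7.74, 7.81 and 7.94 in muscle. *Mapre3*, a protein of growing microtubule ends, stood at 8.51, 8.49 and 8.37 against 8.49, 8.49 and 8.40. *Mtch2*, an insertase of the outer mitochondrial membrane, stood at 9.29, 9.32 and 9.40 against 9.32, 9.30 and 9.30. The 10 named are those whose interval reached least far from 0, and *Gatad2a*, a subunit of the NuRD chromatin complex, came first by that rule (-0.01, 95% interval -0.25 to 0.23), and *Tmem214*, *Rhobtb2*, *Dnttip1*, *Psme3ip1*, *Lrrc41* and *Lemd2* were the others of the 10. On median-centred values *Yy1* would stand at -0.66 and *Mtch2* at -0.64, so evenness is a statement about the deposited scale.

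Genes in common use as references were not alike between tissues. Of 12 measured, 3 were higher and 6 lower in cerebellum, with 2 and 4 under all 3 scalings (median -0.42). *Actb* differed by -0.11 as deposited and 0.44 after quantile normalization, and by -0.78 after median centring. *Polr2a* differed by -0.17 as deposited and -0.21 after quantile normalization, but by -0.84 after median centring. *Gusb* differed by -0.08 as deposited and was called lower after quantile normalization (-0.73) and after median centring (-0.75). *Tbp* (1.15), *Ywhaz* (1.14) and *Hprt* (0.94) were higher, and *Tfrc* (-1.47), *B2m* (-1.40) and *Sdha* (-1.15) lower. After median centring *Hprt* differed by 0.27 and was not called. Genes known for a role in both tissues were spread as widely. *Pvalb*, the calcium buffer of fast fibres and of Purkinje cells and interneurons, was bright in both, with 10.20, 10.05 and 9.81 in cerebellum against 13.00, 12.99 and 12.90 in muscle (difference -2.94). *Ncam1* (2.35) and *Ank2* (2.39) were higher in cerebellum, and *Eef1a2* (-1.11), the elongation factor of neurons and muscle, and *Slc25a4* (-2.35), an ADP/ATP carrier, were lower. *Ndrg2* differed by -0.65, and by -0.09 after quantile normalization.

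Protein complexes present in every cell leaned one way or the other by small amounts. Of 33 proteasome subunits 23 were lower in cerebellum and 2 higher, with 22 and 0 under all 3 scalings (median -0.60). *Psmb6*, a catalytic subunit, gave 7.95, 8.06 and 8.32 in cerebellum, against 9.50, 9.76 and 9.81 in muscle. The vacuolar ATPase, which acidifies lysosomes and synaptic vesicles, ran the other way, with 15 of 18 subunits higher and 8 of them under all 3 scalings (median 0.96). Its widest member was *Atp6v1g2* (4.17), the neuronal form of its subunit, and *Atp6v1a* (2.34) and *Atp6v1b2* (1.84), the catalytic core, followed. Of 37 genes named after translation initiation factors, some of them regulators such as *Eif2ak4* and *Eif4ebp2*, 17 were lower under all 3 scalings and 2 higher. Of 15 tRNA synthetases 7 were lower and 2 higher, with 7 and 0 under all 3 scalings. Among 9 RNA polymerase II subunits 2 were lower and none higher (median -0.06), and among 21 ribosomal proteins 6 were called each way, with 2 higher and 6 lower under all 3 scalings. *Rpl3l*, a ribosomal protein that replaces *Rpl3* in striated muscle, was the widest of these at -5.11.

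Genes of the cells that lie between muscle fibres were lower in cerebellum in most of these lists. All 10 fibroblast genes were lower (median -3.40), with *Postn* (-5.02), *Dcn* (-4.02) and *Col1a1* (-3.86), all of the extracellular matrix. So were 6 of 7 adipocyte genes (median -1.83), led by the hormone *Adipoq* (-4.54), and 6 of 7 pericyte and smooth muscle genes, among them *Acta2* (-3.16). Of 9 endothelial genes 8 were lower (median -1.27), including *Cdh5* (-2.97) and *Pecam1* (-1.66), the junction proteins of all vessels. The genes of the blood-brain barrier went the other way, with 4 of 5 higher in cerebellum and 3 under all 3 scalings (median 2.06). They were led by *Slco1c1* (3.65), which carries thyroxine, *Slc2a1* (2.22), which carries glucose, and *Mfsd2a* (2.06), which carries lipids. Of 5 satellite cell genes 1 was higher and 1 lower (median 0.14), but 0 higher and 3 lower after quantile normalization (median -0.62). Of 3 Schwann cell genes 1 was lower (median -0.16), and 3 were lower after quantile normalization (median -0.96). Tendon genes were lower in 3 of 5 cases, and in 4 of 5 without muscle array 3, where *Tnmd*, a tendon membrane protein, stood at 7.68, against 9.16 and 9.08 on muscle arrays 1 and 2.

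Genes of tissue next to the cerebellum varied between the cerebellum samples. *Ttr*, the thyroxine carrier that the choroid plexus secretes, gave 8.66, 10.66 and 12.20 on the cerebellum arrays, against 4.90, 4.13 and 4.18 in muscle (difference 6.10, SE 0.83). All 6 choroid plexus genes were highest on cerebellum array 3. The share of all clusters highest on that array was not counted, and its median was the highest of the cerebellum arrays (6.16). Of the 6 genes 5 were called higher in cerebellum, 3 of them under all 3 scalings, with a median of 1.83 (0.99 after quantile normalization). Without that array 6 were called higher as deposited (median 1.25). Among clusters with a symbol at or above the 75th percentile of the cerebellum means, *Ttr* had the widest range between cerebellum arrays, 3.54 log2 units. *Glra1*, a glycine receptor subunit of the brainstem and spinal cord, varied too, with 4.79, 6.90 and 7.50 in cerebellum, against 3.16, 2.88 and 2.88 in muscle. The list of brainstem monoamine and cholinergic neurons did not follow *Glra1*. The median level of its 6 measured genes was 4.99, 5.39 and 4.75 on the cerebellum arrays, lowest on array 3. The part of such neighbouring tissue in the other cerebellar differences was not tested. By the same rule the widest range within muscle belonged to *Tnni1* (4.51), and the tendon and cartilage matrix genes *Chad* (10.05, 9.78 and 7.56) and *Kera* (10.08, 9.85 and 7.76) were lowest on array 3.

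The differences recurred on the *Usp15*-deficient arrays. The *Usp15* cluster itself stood at 7.08, 6.99 and 7.19 in deficient cerebellum against 7.63, 7.51 and 7.66 in wild-type cerebellum, and at 6.73, 6.81 and 6.86 in deficient muscle against 8.43, 8.92 and 8.65 in wild-type muscle. Between deficient cerebellum and deficient muscle, 8598 clusters were called higher (57.3%) and 2497 lower (16.7%). The correlation of this difference with the wild-type one was 0.985 over the 14996 clusters, which are not independent replicates. Of the 10887 clusters called on the wild-type arrays, 10856 had the same sign (99.7%) and 10052 were called the same way (92.3%). Of those called under all 3 scalings, 5288 of 5293 had the same sign. Signs and calls on the deficient arrays were read as deposited. Both genotypes share the shift between tissues there, with a median difference of 0.536 on the deficient and 0.542 on the wild-type arrays. A tissue difference that itself differed between the genotypes was called in 0 of 23332 clusters (0.00%, limma interaction, adjusted p under 0.05). At an unadjusted p under 0.05 there were 679 (2.91%). The count was 0 as well after quantile normalization or with a trended prior. The *Usp15* cluster, lower in cerebellum than in muscle only on the wild-type arrays, was not called either. The count of 0 therefore does not show that the tissue differences were the same. *Gabra6* and *Myl1* differed by 7.92 and -8.78 on the deficient arrays, against 7.92 and -8.82 on the wild-type arrays.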

How the data were processed

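Total RNA was extracted with Isogen II, biotin-labelled with a GeneChip WT kit and hybridised to Affymetrix mouse exon arrays. The authors deposited log2 signals per transcript cluster (gene level) and per probe set (exon level). Their background correction, normalization, software and genome build count as not given in the sources used here, and the log2 values were used without further normalization or filter. Wild-type cerebellum was compared with wild-type skeletal muscle (3 arrays each) with limma (version 3.58.1, R 4.3.3), two-sided, with Benjamini-Hochberg adjustment over all clusters and a threshold of 0.05. The code was tested on simulated data. Symbols came from the platform annotation, 14941 clusters were matched by gene number to the GRCm38.p6 gene table, and none changed. Named by rule were the 10 largest differences in each direction, the first 3 measured genes of each list, members called against their list, all pairs, the genes listed as references or for both tissues, and the 10 bright shared genes whose interval reached least far from 0, while further list members were named after their values were seen. The members and lists were chosen with earlier results of these data known. Alternatives were quantile normalization, median centring, other fits, filters and windows, an exon-level rebuild, and leaving out each array. An exact permutation test of 3 against 3 cannot go below p = 0.1 and was not used. The arrays' number limits the precision.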

Additional observations from a re-analysis of the deposited data

How the results depend on the processing

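The scaling of the arrays decided the balance of calls. For clusters called higher in cerebellum, 8380 became 3603 with quantile normalization and 3314 with median centring, and for those lower, 2507 became 4687 and 5293. At 2-fold or more, 3988 higher became 1774, 1620 and, with limma's treat test, 1911, and 1286 lower became 2156, 2804 and 729. On the *Usp15*-deficient arrays quantile normalization gave 3656 higher and 4852 lower. Leaving out 1 array gave 7495 to 7987 higher and 2141 to 2637 lower, and under all 3 scalings 2384 to 2622 higher and 2102 to 2563 lower. The 416 shared clusters became 205 to 407 without 1 array, 188 from exon-level values, 30 and 1611 with windows of 0.3 and 1, and 904 with a brightness limit at the median. Among the 209 genes named by rule, signs turned, with a call as deposited or under the alternative, as follows. With quantile normalization they turned for *Myf5* (-0.62), *Gbx2* (-0.46), *Tbr1* (-0.44), *Acyp1* (-0.44), *Eif2s3y* (-0.23), *Kdm5d* (-0.15), *Fbp1* (-0.11) and *P2ry12* (-0.018). With median centring they turned for *Dnttip1* (-0.67), *Yy1* (-0.66), *Psme3ip1* (-0.66), *Rhobtb2* (-0.65), *Lemd2* (-0.65), *Mtch2* (-0.64), *Acyp1* (-0.63), *Actn1* (-0.595), *Gbx2* (-0.57), *Myf5* (-0.53), *Cdh15* (-0.37), *Tbr1* (-0.27), *Eif2s3y* (-0.18), *Tead4* (-0.16), *Phka2* (-0.13) and *Egr1* (-0.11). Without muscle replicate 3 they turned for *Tnni1* (0.67, with -1.59 to 0.67 over the arrays left out) and *Tnnc1* (0.77, with -1.76 to 0.77). Apart from the scaling itself, the cause was not tested.

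Whether same-numbered arrays of both tissues belong together is not stated. Their deviations correlated at 0.10, -0.07 and 0.07, and 3 of 6 arrays correlated best with their own number. With 3 arrays a tissue these values do not decide whether the samples were paired. With the replicate number as a block, 8125 clusters were higher and 2408 lower (2579 and 2359 under all 3 scalings), 326 were shared, and the deficient arrays gave 8178 and 2342. Of 209 named genes, *Tmem119*, *Tbr1* and *Rbfox1* lost their call under the block.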

Other observations

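Of 11 transcription factors that mark a body region, 5 were lower in cerebellum and 2 higher (16.7% and 55.9% over all clusters with a symbol). Under all 3 scalings 5 were lower and 0 higher (16.4% and 18.9%). The lower genes included *Tbx15* (-4.38), a limb and trunk factor, *Hoxc10* (-3.69) and *Hoxa9* (-1.69), factors of the posterior body. *Lmx1a* was called higher as deposited (0.80, but 0.00 after quantile normalization), and *En1* (0.39) and *Gbx2* (0.10) were not called.

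Several clusters varied widely between samples of the same tissue. *Dbp*, an output gene of the circadian clock, gave 7.81, 8.69 and 8.97 in cerebellum, with 7.38, 9.51 and 9.30 in muscle, so it was lowest on array 1 of both tissues. The cluster *AY036118* was highest on array 1 of both tissues, with 9.67, 8.32 and 7.60 in cerebellum against 10.07, 6.45 and 6.72 in muscle. In muscle, *Top2a*, a gene of dividing cells, gave 4.34, 3.95 and 6.19, and *Mymk*, the fusogen of myoblasts, gave 7.67, 6.68 and 8.87, both highest on array 3. In cerebellum, *Slc6a11*, a GABA transporter of astrocytes, gave 7.59, 9.80 and 9.29, and *Sst*, a peptide of interneurons, gave 6.95, 8.43 and 8.61, both lowest on array 1.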
